A study of Homo sapiens with 6 samples.

Results

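Long intergenic noncoding RNA (lincRNA) genes were followed in MCF-12A cells, a non-tumorigenic human mammary epithelial line, after exposure to octanoic acid (OA). A gene was taken as a member when its symbol in the count table began with LINC and a digit, had the form of a miRNA host gene (MIR, letters or digits, then HG), or was MALAT1, NEAT1, H19, MEG3 or HOTAIR. Of 14803 genes listed, 217 met this rule, namely 195 LINC genes, 18 miRNA host genes and 4 lncRNAs with names of their own (MALAT1, NEAT1, MEG3 and HOTAIR). H19 was not analysed here. The study cultured the same line in mammary epithelial growth medium and treated it for 24 h with OA, given as the sodium salt in phosphate-buffered saline (PBS), or with the PBS vehicle, and sequenced 3 libraries of each group. All 6 libraries came from this 1 line, and no source said whether the 3 libraries of a group were separate cultures, so the spread behind every p-value may be technical.

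LincRNAs are RNA polymerase II transcripts that are spliced and polyadenylated much like mRNA but carry no long conserved reading frame. Many stay in the nucleus, where they act on chromatin or build nuclear bodies, and as a class they are shorter, less abundant and more restricted to particular cell types than mRNA. MALAT1 is an abundant RNA of nuclear speckles, NEAT1 is the scaffold of paraspeckles, and miRNA host genes are long primary transcripts from which Drosha and DGCR8 cut the hairpins that Dicer turns into miRNAs.

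The 6 libraries held between 43049972 and 59935521 counted reads, and levels are given as CPM (reads of a gene relative to the scaled size of its library) after scaling by trimmed mean of M values (TMM). The 3 OA libraries separated from the 3 vehicle libraries along a first principal component that carried 96.1% of the variance. The 6 basal mammary markers KRT5, KRT14, KRT17, TP63, ITGA6 and EGFR summed to between 7855 and 8109 CPM in vehicle and between 4842 and 5071 CPM in OA. In vehicle KRT5 was the highest of them, at a mean of 3918 CPM, and TP63 the lowest, at 89.6 CPM. Among lists for other cell types, 13 of 18 hepatocyte genes were listed, with a sum of 6.71 to 11.7 CPM in vehicle libraries, and OA replicates 1, 2 and 3 had sums of 12.8, 31.5 and 97.6 CPM. For leukocytes CD68 alone of 4 markers was listed, PTPRC and CD3E being among those absent, and its level was 20.2 to 21.8 CPM in vehicle and 54.6 to 57.2 CPM in OA. Of the fibroblast list 2 of 5 genes were listed, COL1A1 and DCN, with sums of 60.6 to 75.9 CPM in vehicle and 100.2 to 102 CPM in OA, while for endothelium PECAM1 alone of 3 was listed, at 5.24 to 6.02 CPM in vehicle and 2.77 to 3.33 CPM in OA. The luminal markers ESR1, FOXA1 and GATA3 (PGR was absent) summed to 14.2 to 15.8 CPM in vehicle and 16.3 to 17.3 CPM in OA. Their part in the changes of the lincRNA genes was not tested. Of the 127 members that rose, 1 (LINC02210) was at least 2-fold higher in OA replicate 3 than in OA replicate 1. A smaller part would not reach that cut.

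The lincRNA genes were short and scarce beside protein-coding genes. Of the 217 members 216 had enough reads to be tested, and LINC01085, with 0 to 3 reads in each library, did not. Exon length, as given in the count table, had a median of 2158 bases in the members, from 369 to 22741 bases, against 3537 bases in 13281 protein-coding genes. The median member had 4 exon blocks and the median coding gene had 10. Per kb of exon, the median vehicle level was 0.573 CPM per kb for the members and 7.6 CPM per kb for the coding genes, and in OA these medians were 0.948 and 7.46 CPM per kb. Length and vehicle level per kb were only weakly related over the 216 members, with a Spearman rho of -0.15 across genes that share libraries.

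**Figure D1:**
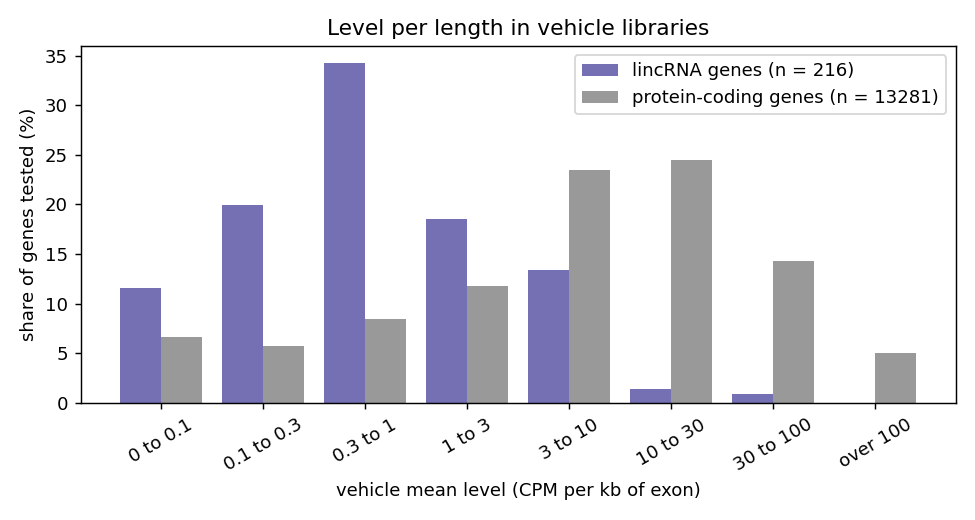
Share of the genes tested (y axis, %) by vehicle mean level in CPM per kb of exon (x axis) for 216 lincRNA genes and 13281 protein-coding genes. The lincRNA bars peak at 0.3 to 1 CPM per kb, where 74 of the members lie, and the coding bars peak at 10 to 30 CPM per kb.

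A handful of transcripts held much of the lincRNA signal. All members together summed to 1267 to 1456 CPM in vehicle and 2656 to 3087 CPM in OA, and the groups did not overlap. MALAT1, NEAT1 and LINC00707 made up between 42.7% and 49.4% of that sum in vehicle and between 60.1% and 65.3% in OA. Per kb, MALAT1 was the highest member in vehicle at 49.8 ± 8.32 CPM per kb (SD, n = 3), followed by the basal-epithelial miRNA host MIR205HG, and these neighbours in the order differed by less than their spread. They lay above 88.5% and 87.8% of coding genes. NEAT1, whose counted exon is 22741 bases long, was at 6.2 CPM per kb, above 45.4% of coding genes.

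After OA more members rose than fell. At an FDR of 0.01 (edgeR's quasi-likelihood test with Benjamini-Hochberg adjustment over all 14785 genes tested) 127 members rose and 32 fell, and 57 missed the threshold. The share that rose was 58.8% of the members tested against 43.3% of all genes tested, and the share that fell was 14.8% against 41.1%. The median log2 fold change (OA minus vehicle) was 0.77 for the members and 0.03 over all genes tested, and the quartiles of the members ran from -0.09 to 1.8. A change of more than 2-fold was found in 92 of those that rose and 18 of those that fell. Among the 112 members with at least 1 CPM in vehicle, 55 rose and 25 fell, 26 and 13 of them by more than 2-fold, and the median was 0.32. These are 49.11% and 22.32% of those members. Of coding genes with at least 1 CPM in vehicle 36.97% rose and 48.89% fell, with a median of -0.12. The LINC genes gave most of this, with 117 of 194 tested rising and 26 falling (median 0.8). The 18 miRNA hosts divided into 7 that rose (MIR325HG among them, from almost no vehicle reads), 6 that fell and 5 that did not pass (median -0.03). For all 127 risers each OA library lay above each vehicle library, and for all 32 fallers each lay below. That goes with passing the threshold and is no separate support, and the share over all genes is not given here. Without OA replicate 3, the library highest in hepatocyte transcripts, 125 rose and 31 fell. In RNA from whole cultures, fewer cells that hold a transcript and less of it per cell cannot be told apart.

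The excess of rises went with the low level of the members. Over the 216 members the vehicle level and the log2 fold change had a Spearman rho of -0.5, and over the 13281 coding genes rho was -0.61. Both measures use the same vehicle libraries. Both rhos also include genes under 0.3 CPM, where nearly all rose and the direction depends on which genes were listed and tested. When every member was set against the median of coding genes in the same range of vehicle CPM, 147 members lay below that median and 69 above, and the median difference was -0.40 on the log2 scale. Coding genes spread over the ranges as the members are would have given 70.4% higher and 12.6% lower. This comparison is a description without a test. It includes the 13 members under 0.1 CPM and the 23 between 0.1 and 0.3 CPM, and the ranges differ, as given below.

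Members fell furthest short of coding genes between 1 and 3 CPM. There 47 members had a median log2 fold change of 0.01 against 1.07 for 959 coding genes, and 34.0% of the members rose against 68.7% of the coding genes. Between 0.3 and 1 CPM the medians were 0.9 for 68 members and 1.5 for 863 coding genes. Between 3 and 10 CPM they were 0.6 for 44 members and 0.56 for 1569 coding genes. Above 30 CPM the members lay on the other side, since 5 of 6 rose while the coding medians were -0.24 for 30 to 100 CPM and -0.56 above 100 CPM. The 13 members under 0.1 CPM all rose, as did all 352 coding genes of that range. The lowest total of any gene was 14 reads, and a gene was tested only with enough reads for the low-count filter. At this vehicle level those reads had to come mainly from OA libraries. The rise of such genes is therefore set by which genes were listed and tested and is no result about lincRNAs. Between 0.1 and 0.3 CPM 22 of 23 members rose and 1 fell, while 97.05% of 441 coding genes rose and 0.0% fell. Rises in that range may be shaped in the same way by which genes were listed and tested. When the ranges were built on CPM per kb instead, the median difference was -0.26.

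**Figure D2:**
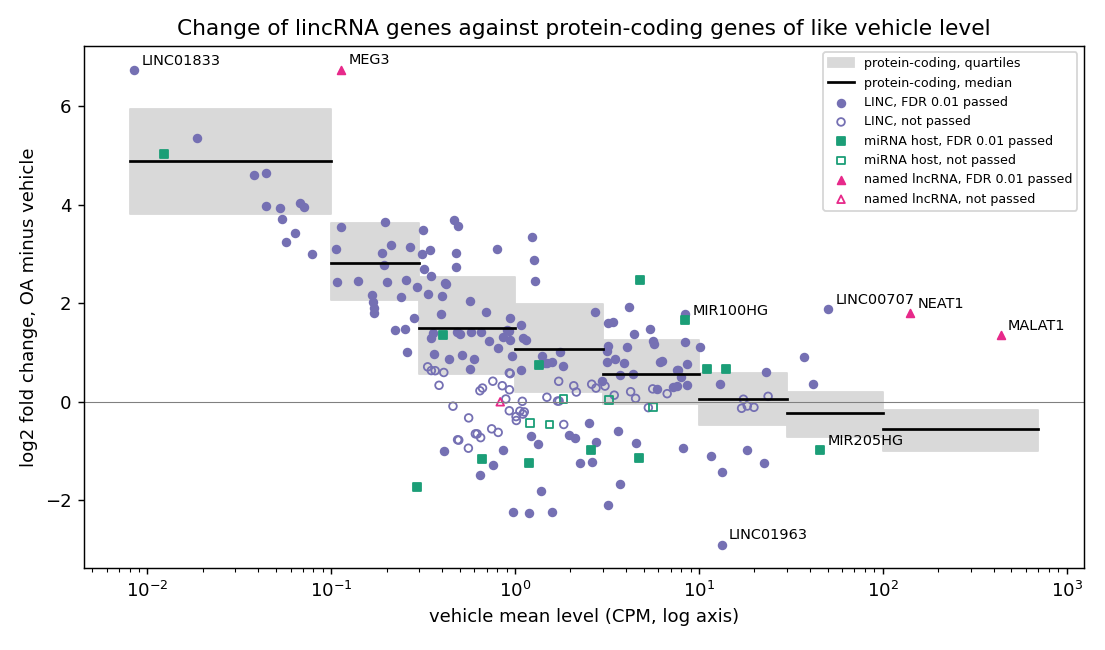
Log2 fold change, OA minus vehicle (y axis), against vehicle mean level in CPM (x axis, log scale) for 216 lincRNA genes, with filled symbols for those that passed an FDR of 0.01. Black lines and grey boxes give the median and quartiles of protein-coding genes in 8 ranges of level, and between 1 and 3 CPM the members centre on 0.01 and the coding genes on 1.07.

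MALAT1 and NEAT1, neighbours on chromosome 11 (chr11:65497738-65506512 and chr11:65422798-65445538, plus strand, hg38), both rose. MALAT1 was at 516, 372 and 422 CPM in vehicle replicates 1 to 3 and at 1265, 930 and 1153 CPM in OA. Every OA library was above every vehicle library, with a log2 fold change of 1.35 ± 0.09 (SE), or 2.55-fold (edgeR adjusted p = 2.73e-11). NEAT1 was at 155, 119 and 149 CPM in vehicle against 559, 485 and 423 CPM in OA, a log2 fold change of 1.79 ± 0.08, or 3.47-fold (edgeR adjusted p = 3.95e-14). In both genes vehicle replicate 2 was the lowest of its group. TALAM1, the antisense transcript of MALAT1, shared 7201 bases of exon with it, or 82.1% of MALAT1's counted length, and changed by the same log2 fold change of 1.35 ± 0.17. TALAM1 held 64 to 124 reads per vehicle library and 204 to 303 per OA library. Whether counting used strand is not stated in any source read, and reads in the shared stretch cannot be told apart. Gene counts also do not separate the short, polyadenylated form of NEAT1 from the long form that builds paraspeckles. FRMD8, the coding gene nearest to NEAT1, went the other way, by -0.37.

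The mRNAs of proteins that assemble around NEAT1 fell. Of 14 paraspeckle genes 13 were tested and all 13 fell, against 41.1% of all genes, with a median log2 fold change of -1.21. SFPQ, a core paraspeckle protein, was at 558 ± 7.09 CPM in vehicle and 170 ± 4.98 CPM in OA (SD, n = 3), which is -1.72 ± 0.03 on the log2 scale. NONO, the partner of SFPQ, went from 358 to 233 CPM. The list's summed level was 4066 to 4125 CPM in vehicle and 1892 to 1958 CPM in OA. Of the genes that shape the 3′ end or the stability of MALAT1 and NEAT1, 3 of 4 were listed and all fell. POP1, a subunit of RNase P, changed by -2.41 ± 0.04, ELAC2, the nuclease RNase Z, by -1.32 ± 0.03 and METTL16, which binds the MALAT1 triple helix, by -0.48 ± 0.03. These lists were written with earlier results of the series known, and 79.5% of the coding genes above 100 CPM fell.

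MEG3 and HOTAIR, lncRNAs best known from imprinting and from the HOXC cluster, did not behave alike. MEG3 (chr14:100826108-100861023) had 8, 4 and 4 reads in vehicle and 795, 731 and 518 reads in OA, which is 0.148, 0.0881 and 0.102 CPM against 14.7, 13.3 and 9.95 CPM. Its log2 fold change was 6.75 ± 0.23 (edgeR adjusted p = 2.64e-16), and coding genes of its vehicle level had a median of 2.82. Of those coding genes 97.05% rose, so the direction of change at that level may be shaped by which genes were listed and tested. HOTAIR (chr12:53962308-53974956) had 35, 43 and 35 reads in vehicle and 49, 38 and 45 in OA. Its groups overlapped, and the log2 fold change was -0.00 ± 0.23 (edgeR adjusted p = 0.996). HOXC11, a homeobox gene whose span overlaps it on the opposite strand, did not pass either.

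LINC00707 was the most abundant LINC gene that rose. It spans chr10:6779598-6842906 on the plus strand with 3070 bases of exon in 5 blocks. Its level was 49.5, 50.5 and 51.0 CPM in vehicle against 190, 182 and 183 CPM in OA, a log2 fold change of 1.88 ± 0.03, or 3.68-fold (edgeR adjusted p = 1.16e-20). Replicates were tight in both groups and did not overlap. Coding genes at 30 to 100 CPM had a median of -0.24. Per kb LINC00707 went from 16.4 to 60.3 CPM per kb. Its nearest coding gene PRKCQ, a protein kinase C, lay 198952 bases away and also rose, by 1.13.

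The other LINC genes with the highest vehicle level per kb fell or did not pass. LINC01503 went from 19.1, 18.4 and 17.1 CPM to 9.03, 9.03 and 9.76 CPM, a log2 fold change of -0.98 ± 0.06. LINC02001, now named SNHG30 as a snoRNA host, went from 8.39, 7.78 and 8.26 CPM to 4.31, 4.16 and 4.21 CPM, a log2 fold change of -0.95 ± 0.08. In both the libraries of the groups stood apart. LINC01468, now LNCAROD and named after regulation of DKK1, was at 16.8, 18.5 and 17.0 CPM in vehicle against 18.5, 17.9 and 17.8 CPM in OA (0.05 ± 0.05, edgeR adjusted p = 0.382). DKK1, a secreted Wnt inhibitor 133220 bases away, fell by 0.92 on the log2 scale. LINC01578, now CHASERR, is known in mouse to hold down the chromatin remodeller gene Chd2 next to it. It was at 20.4, 20.4 and 18.95 CPM in vehicle against 18.99, 18.1 and 18.2 CPM in OA (-0.11 ± 0.05, edgeR adjusted p = 0.046), while CHD2, 1574 bases away, rose 2.52-fold from 101 ± 2.62 to 255 ± 2.14 CPM (SD, n = 3).

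**Figure D3:**
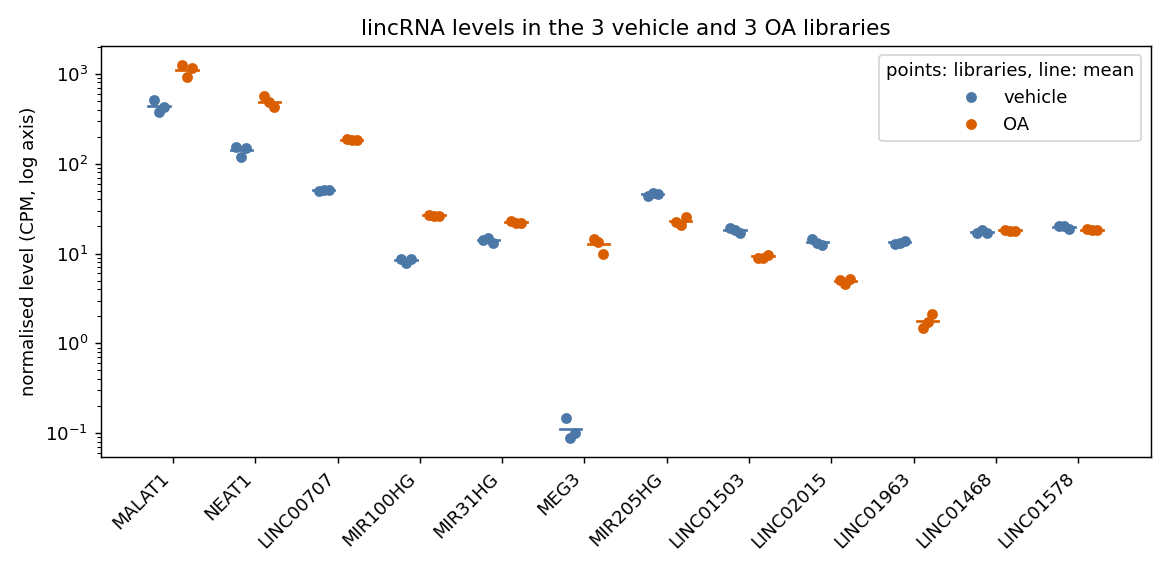
Level in CPM (y axis, log scale) of 12 lincRNA genes in each of the 3 vehicle and 3 OA libraries, with points for libraries and lines for group means. MALAT1, NEAT1, LINC00707, MIR100HG, MIR31HG and MEG3 lie higher in OA, MIR205HG, LINC01503, LINC02015 and LINC01963 lie lower, and LINC01468 and LINC01578 overlap.

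Several abundant or renamed LINC genes filled out the pattern. LINC00674, at 38.7, 37.4 and 35.1 CPM in vehicle, was at 69.7, 73.2 and 66.02 CPM in OA (0.91 ± 0.04). LINC00963 was at 9.28, 7.8 and 7.98 CPM in vehicle against 27.6, 30.5 and 28.9 CPM in OA (1.79 ± 0.07), and LINC00641 went the other way, from 22.8, 21.3 and 23.2 CPM to 10.5, 7.77 and 10.3 CPM (-1.24 ± 0.08). In each of these the libraries of the groups stood apart. LINC00888, now SNHG33 and like LINC02001 renamed as a snoRNA host, rose from 4.19, 3.9 and 4.44 CPM to 16.2, 15.3 and 16.3 CPM (1.93 ± 0.08), so the pair of renamed snoRNA hosts moved in opposite directions. LINC00704, now MANCR, a transcript named for its link with mitosis, fell by 0.83 on the log2 scale, and LINC01481, now PRANCR, named for renewal of epidermal progenitors, changed by -0.65 ± 0.29 and did not pass (edgeR adjusted p = 0.0431).

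The LINC genes with the largest rises that reached 1 CPM in OA were all near 0 or under 0.5 CPM in vehicle. LINC01833 on chromosome 2 had 0, 0 and 1 read in vehicle and 54, 56 and 57 reads in OA, which gives a ratio of 144 with a 95% Clopper-Pearson interval of 25.4 to 5705 for counting error only. It lies 2699 bases from the homeobox gene SIX3, on the opposite strand, and SIX3 rose 6.43-fold from 0.439 to 2.81 CPM. LINC01589 had 1, 4 and 1 reads in vehicle and 71, 54 and 59 in OA. LINC00900 had 2, 4 and 3 reads against 77, 58 and 43, and LINC01564 had 3, 6 and 1 against 63, 77 and 46. These 4 genes lie in the range where a gene could be tested only with enough OA reads. LINC01234 had 3, 6 and 6 reads against 71, 64 and 74. It lay between 0.1 and 0.3 CPM in vehicle, where 97.05% of coding genes rose.

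LINC01239, LINC02328 and LINC00520 had firmer vehicle levels. LINC01239, on chromosome 9, was at 0.296, 0.463 and 0.638 CPM in vehicle against 5.88, 5.26 and 6.47 CPM in OA (log2 fold change 3.7 ± 0.18). LINC00520, on chromosome 14, was at 0.352, 0.683 and 0.434 CPM in vehicle against 5.95, 5.89 and 5.47 CPM in OA (3.57 ± 0.17). LINC02328 had 10, 8 and 9 reads in vehicle and 161, 138 and 104 in OA (3.66 ± 0.25). Coding genes between 0.3 and 1 CPM had an upper quartile of 2.54, and those between 0.1 and 0.3 CPM an upper quartile of 3.64. As genes picked for the largest rises, LINC01239 and LINC00520 lay beyond the coding quartile of their range, which the choice itself favours. LINC02328 was within its standard error of its own, in a range where 97.05% of coding genes rose.

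The largest fall was that of LINC01963 (chr2:216216889-216220192, plus strand, a single block of 3304 bases). It was at 12.8, 13.2 and 13.8 CPM in vehicle against 1.49, 1.73 and 2.11 CPM in OA, a log2 fold change of -2.90 ± 0.10 (edgeR adjusted p = 6.91e-16). XRCC5, which encodes the Ku80 subunit of the DNA end-binding complex, lies 10596 bases away on the same strand and fell from 548 to 214 CPM. LINC02015 (chr3:177816865-177899224) was at 14.7, 12.96 and 12.4 CPM in vehicle against 5.1, 4.62 and 5.17 CPM in OA (-1.43 ± 0.08). Both stood well below their vehicle libraries, whereas coding genes at 10 to 30 CPM had a median of 0.05.

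Among LINC genes with at least 1 CPM in vehicle, the other 6 of the 8 largest falls were of genes under 4 CPM. LINC01224, beside the zinc finger gene ZNF91, went from 3.17, 3.31 and 3.09 CPM to 0.755, 0.766 and 0.691 CPM (-2.11 ± 0.15). LINC01704 went from 3.63, 3.97 and 3.52 CPM to 1.12, 1.17 and 1.19 CPM (-1.67 ± 0.13). LINC01537 went from 1.63, 1.83 and 1.3 CPM to 0.497, 0.328 and 0.173 CPM (-2.24 ± 0.27), and the gene beside it on the other strand, the phosphodiesterase PDE2A, rose 4.15-fold. LINC01311 (-2.26 ± 0.27), LINC00052 (-1.82 ± 0.22) and LINC01572 (-1.25 ± 0.19) likewise had no OA library as high as the lowest vehicle library.

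Each of the 18 miRNA host genes held at least 1 mature miRNA of RefSeq (GRCh38.p14) inside its span on the same strand, 54 in all. Small RNA was not measured, so the values below are of the host transcripts. The mature forms printed here are those with the let-7 seed and the main arms of MIR100HG, MIR29B2CHG, MIR31HG, MIR34AHG and MIR205HG, hosts that changed and are described below. Bases 2 to 8, the seed that pairs with targets, are in capitals. One seed occurred in more than 1 host, the let-7 seed, in MIR100HG, MIRLET7BHG and MIR4458HG.
let-7a-5p (MIR100HG and MIRLET7BHG): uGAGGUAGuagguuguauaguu
let-7b-5p (MIRLET7BHG): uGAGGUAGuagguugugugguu
miR-4458 (MIR4458HG): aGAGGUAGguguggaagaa
miR-100-5p (MIR100HG): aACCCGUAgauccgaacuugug
miR-125b-5p (MIR100HG): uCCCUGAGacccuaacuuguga
miR-29b-3p (MIR29B2CHG): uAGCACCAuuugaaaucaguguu
miR-29c-3p (MIR29B2CHG): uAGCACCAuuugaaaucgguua
miR-31-5p (MIR31HG): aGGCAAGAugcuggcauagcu
miR-34a-5p (MIR34AHG): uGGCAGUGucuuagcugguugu
miR-205-5p (MIR205HG): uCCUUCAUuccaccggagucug

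The 3 hosts with the let-7 seed went 3 ways. Let-7 miRNAs hold back growth genes such as RAS and HMGA2 in differentiated cells. MIR100HG, which also carries miR-100 and miR-125b, was at 8.78, 7.78 and 8.62 CPM in vehicle against 27.0, 26.5 and 26.2 CPM in OA, a log2 fold change of 1.66 ± 0.06 (edgeR adjusted p = 4.48e-16). MIRLET7BHG was at 6.87, 4.94 and 5 CPM in vehicle against 5.4, 4.69 and 5.74 CPM in OA (-0.10 ± 0.12, adjusted p = 0.431), with groups that overlapped. MIR4458HG was at 2.48, 2.58 and 2.65 CPM in vehicle against 1.2, 1.44 and 1.23 CPM in OA (-0.99 ± 0.15).

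MIR205HG, the host of the basal-epithelial miR-205 (chr1:209428820-209432547), fell. It was at 43.1, 46.9 and 46.5 CPM in vehicle against 22.5, 20.9 and 25.7 CPM in OA, a log2 fold change of -0.98 ± 0.06 (edgeR adjusted p = 3.05e-12). A separate row for the MIR205 hairpin, which shares 39 bases with the host's exons, had 40, 17 and 21 reads in vehicle and 4, 2 and 1 in OA. Of the 6 basal markers 4 fell as well, with log2 fold changes of -1.46 for TP63, -1.89 for KRT5, -2.22 for KRT14 and -1.56 for ITGA6. The other 2 rose, KRT17 by 0.6 and EGFR by 0.78. Whether these moved together for a shared reason was not tested.

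MIR31HG, host of miR-31, rose from 14.0, 14.7 and 13.3 CPM to 22.8, 22.1 and 22.1 CPM (0.67 ± 0.05). MIR34AHG, host of the p53-responsive miR-34a, rose from 11.9, 9.45 and 11.9 CPM to 19.9, 18.2 and 14.9 CPM (0.67 ± 0.09), and its antisense neighbour LINC01759, now LNCTAM34A, rose by 0.73 ± 0.14. The 2 share 113 bases of exon on opposite strands. MIR29B2CHG, host of the paired miR-29b and miR-29c, rose from 0.37, 0.507 and 0.332 CPM to 1.27, 0.967 and 0.883 CPM (1.36 ± 0.25). MIR3936HG rose by 0.76 ± 0.17, and 17.1% of its exon length overlapped exons of the carnitine transporter genes SLC22A4 and SLC22A5 on the other strand.

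MIR4697HG rose most among hosts above 1 CPM, from 4.33, 4.98 and 5 CPM to 27.0, 26.7 and 25.4 CPM (2.47 ± 0.07, 5.56-fold). RefSeq now lists this symbol under IGSF9B, a cell adhesion gene of the immunoglobulin superfamily. The table held IGSF9B as a row of its own 6885 bases away on the same strand, and that row rose by 3.04 ± 0.07, from 3.61 to 30.03 CPM. The rows share no exon, and whether they are parts of 1 transcript cannot be told from gene counts.

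MIR600HG (-1.13 ± 0.12) and MIR4453HG (-1.24 ± 0.21) fell, each with all OA libraries below all vehicle libraries. MIR17HG, which carries the miR-17 to miR-92a cluster, was at 2.93, 3.35 and 3.47 CPM in vehicle against 3.96, 3.03 and 2.94 CPM in OA (0.04 ± 0.13). MIR924HG (0.05 ± 0.17), MIR762HG (-0.46 ± 0.23) and MIR193BHG (-0.43 ± 0.21) did not pass either, though for MIR193BHG the OA libraries, at 1.05, 0.985 and 0.634 CPM, were all below the vehicle libraries at 1.13, 1.19 and 1.3 CPM. Without OA replicate 3 MIR762HG passed, at -0.77. Of 3 hosts under 1 CPM in both groups, MIR210HG and MIR503HG fell. MIR325HG rose from 2 reads over the vehicle libraries to 89 in OA, a ratio of 38.3. The 95% Clopper-Pearson interval was 10.3 to 321, for counting error only. MIR325HG lies in the range where a gene could be tested only with enough OA reads, so its rise is set by that requirement.

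**Figure D4:**
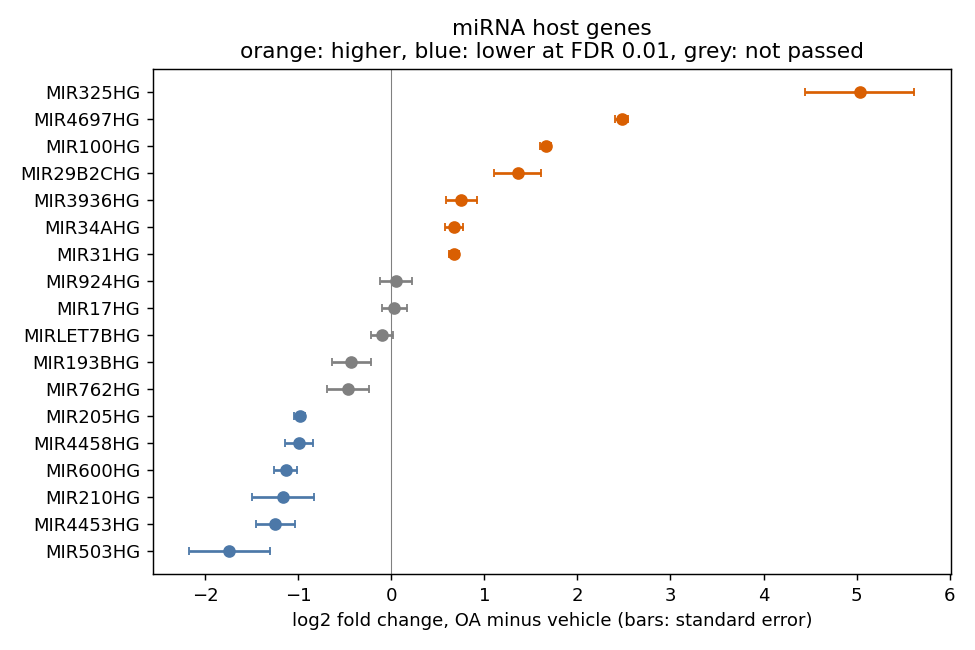
Log2 fold change, OA minus vehicle (x axis), of the 18 miRNA host genes with bars of 1 standard error. The 7 orange genes rose and the 6 blue genes fell at an FDR of 0.01, and the 5 grey genes did not pass. The rise of MIR325HG is set by which genes could be tested, since at its vehicle level that took enough OA reads.

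Of 13 genes that turn host transcripts into working miRNAs, 6 rose and 5 fell, shares near the 43.3% and 41.1% of all genes, with a median log2 fold change of 0.10. Among the nuclear members, DROSHA fell, going from 138 ± 1.67 to 59.9 ± 0.10 CPM (SD, n = 3; log2 fold change -1.20 ± 0.03), its partner DGCR8 by -1.24 ± 0.05 and the export factor XPO5 by -0.55 ± 0.03. In the cytoplasm DICER1, the second nuclease, was at 66.5 and 67.7 CPM and did not pass, while its partner TARBP2 fell by 1.17 and the effector TNRC6A by 0.50 on the log2 scale. All 4 Argonaute genes, whose products carry the miRNA, rose, from 0.2 ± 0.04 for AGO2 to 1.29 ± 0.05 for AGO4.

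Nearest coding genes gave no simple match of direction. Of the 127 members that rose, the nearest coding gene rose in 66, fell in 45 and did not pass in 16. Of the 32 that fell, it fell in 17, rose in 10 and did not pass in 5. The share of risers with a rising neighbour, 52.0%, stands beside 42.9% of all coding genes that rose, and the share of fallers with a falling neighbour, 53.1%, beside 43.2% of all coding genes that fell. Over 216 pairs the log2 fold changes had a Spearman rho of 0.13, as a description across genes that share libraries. It was 0.10 for 18 pairs with overlapping spans and 0.15 for 39 other pairs under 5000 bases apart. For 79 pairs that lay 5000 to 50000 bases apart it was 0.24, and for 80 pairs farther apart -0.05. For 12 members whose start lay under 1000 bases from that of the nearest coding gene on the other strand, a layout in which both can share a promoter, 6 members rose and the coding gene rose in 2 of these, fell in 3 and did not pass in 1. LINC01137, now LITATS1, was one member close to its neighbour, 75 bases from the ribonuclease gene ZC3H12A. It rose from 6.02, 5.44 and 4.74 CPM to 14.8, 15.98 and 14.5 CPM (1.47 ± 0.08), and ZC3H12A changed by -0.28.

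**Figure D5:**
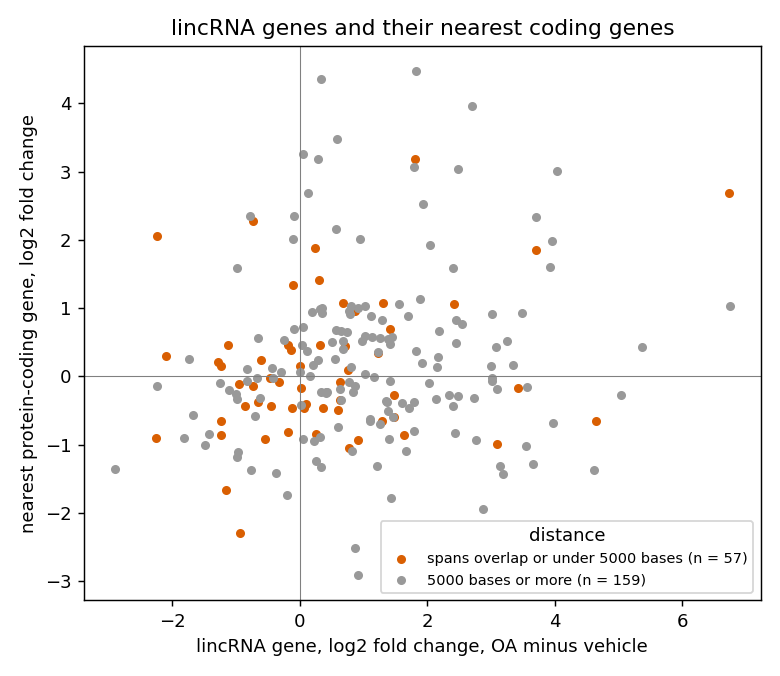
Log2 fold change of each of 216 lincRNA genes (x axis) against that of its nearest protein-coding gene (y axis), with orange points for pairs that overlap or lie under 5000 bases apart. The points fill all 4 quadrants, and rho over all pairs is 0.13.

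Promoter sequence (250 bases before to 50 after the start, RefSeq, GRCh38.p14) was found for 160 of the 211 members that RefSeq annotates as lncRNA. The motifs below were searched on both strands, and none contains another: TATAAA of core promoters, CCAAT for the factor NF-Y, GGGCGG for SP1, CACGTG for E-box proteins, TGANTCA for AP-1 and TGACGTCA for CREB. CCAAT was in 44.4% of member promoters and 35.7% of all 27305 promoters. It was in 17 of 23 promoters of members that fell (73.9%), in 37 of 89 of those that rose (41.6%) and in 16 of 47 of those that did not pass (34.0%). TATAAA was in 0 of the 23 and in 10 of the 89, against 11.95% of all promoters. CACGTG was in 10 of the 89 (11.2%) and 1 of the 23, against 7.44% of all. TGANTCA was in 8 of the 47 that did not pass (17.02%), 8 of the 89 and 1 of the 23, against 7.76% of all. The median GC content was 50.3% for members that fell, 58.0% for those that rose and 58.3% for all promoters. It was 64.67% for members that did not pass, so these also stood apart from all promoters. A match is only a string of letters, and these shares carry no test.
Among the LINC genes named by the rule, the promoters of the most abundant riser and the 2 most abundant fallers with an entry show these matches in capitals, on the strand of each gene.
LINC02015, fell (chr3:177816615-177816914, plus strand): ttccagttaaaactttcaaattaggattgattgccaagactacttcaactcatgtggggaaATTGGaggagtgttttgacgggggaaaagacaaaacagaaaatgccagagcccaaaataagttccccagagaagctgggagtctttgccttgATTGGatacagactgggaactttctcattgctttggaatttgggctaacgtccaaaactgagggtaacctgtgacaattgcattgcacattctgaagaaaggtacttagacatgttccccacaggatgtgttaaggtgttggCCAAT
LINC02001, fell (chr17:35567864-35568163, plus strand): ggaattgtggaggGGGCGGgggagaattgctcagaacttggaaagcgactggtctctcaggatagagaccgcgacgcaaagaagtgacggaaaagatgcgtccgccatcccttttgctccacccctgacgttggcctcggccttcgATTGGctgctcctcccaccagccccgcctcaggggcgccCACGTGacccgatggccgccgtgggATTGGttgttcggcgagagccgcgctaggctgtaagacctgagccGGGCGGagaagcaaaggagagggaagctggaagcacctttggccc
LINC01234, rose (chr12:113773634-113773933, minus strand): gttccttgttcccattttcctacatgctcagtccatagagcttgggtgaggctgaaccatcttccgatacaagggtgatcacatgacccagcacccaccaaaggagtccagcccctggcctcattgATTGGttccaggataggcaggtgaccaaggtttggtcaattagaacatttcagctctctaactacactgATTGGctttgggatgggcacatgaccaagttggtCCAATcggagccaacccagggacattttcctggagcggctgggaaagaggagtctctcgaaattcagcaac
All of these hold CCAAT or its reverse ATTGG, LINC02001 also holds GGGCGG and CACGTG, and LINC01234 rose although it holds CCAAT.

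Names and overlaps set a limit on which members are lincRNAs in the strict sense. RefSeq annotates 211 of the 217 as lncRNA, 5 as part of protein-coding genes (LINC00514, LINC00672, LINC00950, LINC01279 and MIR4697HG) and LINC01296 as a transcribed pseudogene. Of these 6, 3 rose and 1 fell. Exons of 20 members overlapped exons of another listed gene, 16 of them on the other strand. Among the 196 tested members without such overlap 117 rose and 30 fell, with a median log2 fold change of 0.81. By exon length the share that rose was 62.5% of 40 members under 1000 bases, 65.4% of 52 from 1000 to 2000 bases, 55.7% of 79 from 2000 to 3977 bases and 53.3% of 45 from 4157 bases up. Length and log2 fold change had a Spearman rho of -0.10 over the 216 members.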

How the data were processed

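RNA of MCF-12A cells was sequenced in 3 OA and 3 vehicle libraries, grouped by the GEO labels. Per the labels the authors used STAR 2.5, featureCounts 1.5.1 and hg38. The deposited values are raw read counts per gene, with exon coordinates and a Length equal to the union of exons. Strand use and RNA selection (poly(A) or rRNA removal) are not given in the sources used here, and read layout is given both as single reads and as paired ends. Poly(A) selection would lower transcripts without a tail.

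Counts were filtered with filterByExpr (18 of 14803 genes left out), scaled by TMM and tested with edgeR 4.0.16 (R 4.3.3) by the quasi-likelihood test without a block, at an FDR of 0.01 over 14785 genes. The test was checked on simulated data in which far fewer genes changed than here, so a change of most genes was not tried. Group members and gene lists were chosen with earlier results of these data known. Named genes were MALAT1, NEAT1, MEG3 and HOTAIR, miRNA hosts with at least 1 CPM in the higher group, the 8 largest rises and 8 largest falls of LINC genes that passed with libraries that did not overlap and at least 1 CPM, and the 5 LINC genes highest per kb in vehicle; others are named as neighbours, overlaps, abundant or renamed genes or limits, after their values were seen. Gene types came from RefSeq, which matched 14566 genes. Intervals and a floor of 3 counts cover counting error only. Alternatives were other scalings, filters and tests (DESeq2 1.42.0), a replicate block, each library left out, an FDR of 0.05 and other ranges of level. Same-numbered libraries were not paired. Values of some single genes are not reported here.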

Additional observations from a re-analysis of the deposited data

How the results depend on the processing

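The counts of members that rose and fell stayed within 1.5 times under every alternative run, from 101 to 149 higher and from 22 to 36 lower at an FDR of 0.01. The median log2 fold change of the members, 0.77, became 0.99 with upper quartile scaling and 1.05 with library totals only, which moved the median of all genes from 0.03 to 0.26 and 0.32. The median difference from coding genes of like level, -0.40, became -0.31 with at least 1 CPM in 3 libraries, -0.26 with ranges by CPM per kb and -0.37 with ranges by vehicle replicate 2, and ran from -0.45 to -0.35 when 1 library was left out.

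Of 40 named genes, those that reversed had not passed. With upper quartile scaling and library totals HOTAIR became 0.23 and 0.28, MIRLET7BHG 0.13 and 0.19 and LINC01578 0.11 and 0.17, the last passing with totals, and LINC01468 passed at 0.28 and 0.34. When 1 library was left out, HOTAIR ran from -0.17 to 0.11, MIR17HG from -0.12 to 0.10, MIR924HG from -0.14 to 0.16 and MIRLET7BHG from -0.19 to 0.0856. No named gene that passed lost its call where it was tested, and 5 of the 40 were left out by the filter of 1 CPM. Same-numbered libraries did not deviate together (correlations from -0.03 to 0.08), and the replicate block gave 126 higher and 30 lower. Reads per library limit genes near the floor of 3 counts, 0.0547 to 0.0765 CPM.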
